A study of Mus musculus with 2 samples.

Results

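Let-7 is an ancient microRNA family, and several of its mature products are encoded at more than 1 place in the mouse genome. The 6 genes described here are the 2 loci each of let-7a (Mirlet7a-1 and Mirlet7a-2), let-7c (Mirlet7c-1 and Mirlet7c-2) and let-7f (Mirlet7f-1 and Mirlet7f-2). They were picked by symbol, as 6 of the 2202 microRNA genes that were counted. RNA under 30 bases had been sequenced from the left cerebral cortex of female mice of the B6CASTF1/J hybrid strain, aged 4 days, with no treatment named. There was 1 group of 2 biological replicates, a library from each of 2 separately numbered animals that share a donor record, and no second condition, so no test between groups exists. Values over both libraries are means ± SD with n = 2. All intervals reflect counting error alone and treat each read as a separate molecule. Reads copied by PCR are not separate molecules, so the intervals can be too narrow.

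A microRNA gene is transcribed as part of a longer RNA, cut in the nucleus to a hairpin and cut again in the cytoplasm to a short duplex, of which 1 strand, for let-7 mainly the 5p strand, is loaded into an Argonaute protein. The bases near its 5′ end, the seed, pair with target messenger RNAs and lower their translation and stability. Let-7 products are low in stem cells, where the RNA-binding protein LIN28 blocks the maturation of the hairpin, and accumulate as neural progenitors leave the cell cycle and differentiate.

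The 5p products are shown first because they are what the loci share. They and the hairpins come from RefSeq (GRCm38.p6), where 6 of 6 members matched a hairpin. Mirlet7a-2 has no 5p entry of its own there, and its hairpin contains the let-7a sequence unaltered. Capitals mark the seed, bases 2 to 8 from the 5′ end. The 3 products of the single-copy neighbours Mirlet7b, Mirlet7d and Mir98 are given beside them.
let-7a-5p: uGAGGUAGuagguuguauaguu
let-7c-5p: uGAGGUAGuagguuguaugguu
let-7f-5p: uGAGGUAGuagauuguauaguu
let-7b-5p: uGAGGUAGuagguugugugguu
let-7d-5p: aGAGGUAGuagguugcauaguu
miR-98-5p: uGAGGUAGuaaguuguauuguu

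All 6 products have the same seed. Counted from 1 at the 5′ end, let-7a and let-7c differ by A19G, and let-7a and let-7f by G12A, so that the 3 duplicated products are 1 or 2 bases apart. Let-7c and let-7b differ by A17G alone. Each of the 3 duplicated sequences of 22 bases occurred in the hairpins of both of its own loci. No let-7b, let-7d, let-7e, let-7g, let-7i or Mir98 product occurred in any of the 2202 hairpins that lies elsewhere. Genes that overlap a locus were left out of this search.

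The 3p strands separate most of the copies. Capitals again mark bases 2 to 8.
let-7a-1-3p: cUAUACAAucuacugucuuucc
let-7a-2-3p: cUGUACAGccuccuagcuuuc
let-7c-1-3p: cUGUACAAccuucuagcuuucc
let-7c-2-3p: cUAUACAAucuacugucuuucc
let-7f-1-3p: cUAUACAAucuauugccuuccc
let-7f-2-3p: cUAUACAGucuacugucuuuc

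The 3p products of Mirlet7a-1 and Mirlet7c-2 are identical, with 0 differences, although these loci yield different 5p products. The other 4 occurred in no hairpin elsewhere. Mirlet7a-1 and Mirlet7c-2 thus share both of their annotated products with a counted gene elsewhere, and the other members share only the 5p product with one.

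The whole hairpins are shown to place the exact stretches that the loci share. Here capitals mark the longest stretch that occurs exactly in the hairpin of a microRNA gene elsewhere, on either strand.
Mirlet7a-1: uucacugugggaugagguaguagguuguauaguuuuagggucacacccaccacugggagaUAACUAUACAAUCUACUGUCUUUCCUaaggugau
Mirlet7a-2: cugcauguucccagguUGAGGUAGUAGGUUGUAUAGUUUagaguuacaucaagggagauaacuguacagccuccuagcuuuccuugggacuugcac
Mirlet7c-1: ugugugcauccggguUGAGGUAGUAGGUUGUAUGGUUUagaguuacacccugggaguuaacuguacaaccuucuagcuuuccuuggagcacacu
Mirlet7c-2: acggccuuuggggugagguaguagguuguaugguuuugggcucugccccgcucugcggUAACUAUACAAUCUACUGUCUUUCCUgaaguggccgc
Mirlet7f-1: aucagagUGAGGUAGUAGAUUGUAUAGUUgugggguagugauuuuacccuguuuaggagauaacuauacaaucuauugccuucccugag
Mirlet7f-2: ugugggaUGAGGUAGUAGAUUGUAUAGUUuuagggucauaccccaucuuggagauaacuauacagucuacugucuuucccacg

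The longest shared stretch was 26 bases between Mirlet7a-1 and Mirlet7c-2, around their common 3p product. It was 23 bases between the let-7a copies and between the let-7c copies, which is the 5p product and 1 more base on its 3′ side. The let-7f copies share the 22 bases of the product and no adjoining base on either side. Over whole hairpins, aligned end to end, the most alike were Mirlet7a-1 and Mirlet7f-2 (80.0% identity) and Mirlet7a-2 and Mirlet7c-1 (79.2%), which are pairs with different 5p products. The copies of 1 product were 68.9% (let-7a), 67.3% (let-7c) and 72.2% (let-7f) identical.

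The tetranucleotide GGAG, the motif that the zinc knuckles of LIN28 are known to bind in let-7 hairpins, was searched as these letters in all hairpins. On the hairpin strand it was found in 5 of the 6 members, once each in Mirlet7a-1, Mirlet7a-2, Mirlet7f-1 and Mirlet7f-2 and at 2 places in Mirlet7c-1. Mirlet7c-2 had 0 matches, as did Mirlet7b and Mir98, and 9 of the 12 let-7 hairpins held it. Among all 2202 hairpins, whose lengths differ, 37.2% held it on that strand and 59.8% on either. A match describes the letters and not binding.

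The loci lie in 5 clusters, with coordinates on mm10 and host genes from GENCODE M21. Mirlet7a-1 (ENSMUSG00000065421.3, chr13:48538179-48538272, minus strand) and Mirlet7f-1 (ENSMUSG00000105621.1, chr13:48537829-48537917, minus strand) lie in exon sequence of the noncoding 6720427I07Rik. Mirlet7d lies close by on the same strand. Mirlet7a-2 (ENSMUSG00000092770.1, chr9:41536716-41536811, plus strand) lies between Mir100 and Mir125b-1 in introns of the noncoding 3110039I08Rik and Gm49317. Mirlet7c-1 (ENSMUSG00000065557.3, chr16:77599657-77599750, plus strand) follows Mir99a in an intron of Mir99ahg, with Mir125b-2 farther downstream, and also lies opposite an intron of Gm11146. Mirlet7c-2 (ENSMUSG00000065608.1, chr15:85706603-85706697, plus strand) lies 621 bases before Mirlet7b in an exon of the noncoding Lncppara. Mirlet7f-2 (ENSMUSG00000065602.1, chrX:151912346-151912428, plus strand) lies 785 bases before Mir98 in an intron of Huwe1, which encodes a ubiquitin ligase.

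Counts on the annotated strand of microRNA genes came to 3555469 in replicate 1 and 2761003 in replicate 2, and levels are given as CPM, counts scaled to one common total over these genes. Reads mapped to several places, 45.8% and 41.0% of all reads, were assigned to no gene. Among marker microRNAs, 9 of 12 neuronal and 3 of 4 progenitor genes were detected, and none of the marker lists had a member at 0 in both libraries. The neuronal genes not detected were Mir124a-1, Mir124a-2 and Mir124a-3, and the progenitor gene was Mir9-2, all loci with copies. Whether their reads were among those mapped to several places was not tested. Mir92b, at a mean of 4513 CPM, made up most of the progenitor sum. Summed neuronal markers stood at 92536 CPM in replicate 1 and 70445 in replicate 2, progenitor markers at 5659 and 3886, oligodendrocyte markers (3 of 3 detected) at 913 and 613, and microglia and leukocyte markers (4 of 4) at 514 and 472. Summed epithelial markers (4 of 5 detected) stood at 1930 CPM in replicate 1 and 93.8 in replicate 2, choroid plexus and ciliated cell markers (4 of 4) at 5218 and 2788, red cell markers (3 of 3) at 60.2 and 550, and the endothelial Mir126a at 12842 and 19723. Genes of a list did not all follow its sum. Neuronal Mir138-1 and Mir138-2, progenitor Mir9-3, oligodendrocyte Mir219a-1, and Mir142 and Mir155 of microglia and leukocytes were higher in replicate 2. Red cell Mir486 was higher in replicate 1.

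Each of the 6 members stood at 2 CPM or more in replicates 1 and 2, the level taken as detection, which 20.4% of all microRNA genes reached in both libraries. Their summed level was 8204 CPM in replicate 1 and 9052 in replicate 2 (8628 ± 599), from 29169 and 24992 reads. That was 2.65% (95% Wilson interval 2.62 to 2.68) of the counts of all 12 let-7 genes in replicate 1 and 2.67% (2.64 to 2.71) in replicate 2. The 6 genes with a product of their own, Mirlet7b, Mirlet7d, Mirlet7e, Mirlet7g, Mirlet7i and Mir98, held the remaining 97.3% ± 0.0162. The single-locus gene with the lowest level, Mir98 (4145 and 4934 CPM), was above each of the 6 members in both libraries. These shares hold only reads that could be placed at 1 locus. The reads of the members equalled 0.545% and 0.614% of the reads mapped to several places, a total in which let-7 reads were not counted apart, so the amounts of let-7a, let-7c and let-7f RNA cannot be read from these values.

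**Figure D1:**
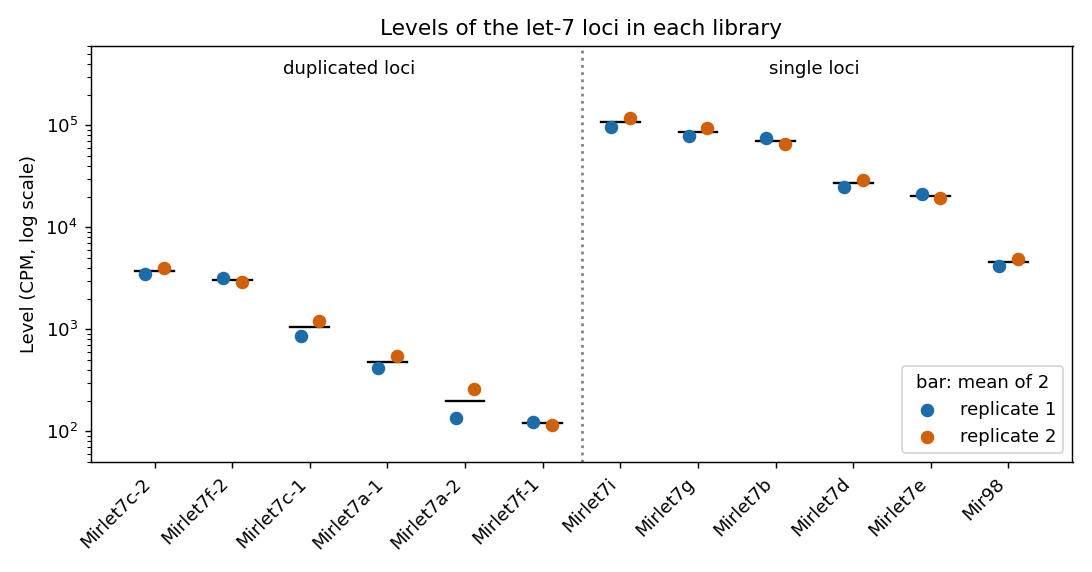
Levels of the 12 let-7 genes in CPM on a log axis, 1 point per library (replicates 1 and 2) and a bar for their mean. The 6 duplicated loci lie between 116 and 4020 CPM, and the 6 single loci between 4145 and 116862 CPM.

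Mirlet7c-2 was the highest of the members, with 12410 counts in replicate 1 and 11098 in replicate 2, or 3490 and 4020 CPM (3755 ± 374). Mirlet7f-2 came next with 11273 and 7985 counts, or 3171 and 2892 CPM (3031 ± 197). These loci together held 81.2% (80.7 to 81.6) of the members' reads in replicate 1 and 76.4% (75.8 to 76.9) in replicate 2.

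Mirlet7c-1 had 3077 and 3359 counts, at 865 and 1217 CPM (1041 ± 248). Mirlet7a-1 had 1486 and 1507 counts, at 418 and 546 CPM (482 ± 90.4). Mirlet7c-2, with which it shares the 26-base stretch printed above, had 8.35 times its reads in replicate 1 and 7.36 times in replicate 2.

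Mirlet7a-2 had 485 and 722 counts, at 136 and 261 CPM (199 ± 88.5), the widest spread of the 6 relative to its mean (44.5%). Mirlet7f-1 was lowest, with 438 and 321 counts, at 123 and 116 CPM (120 ± 4.90). The 6 members stood in the same order in both libraries. Between Mirlet7a-2 and Mirlet7f-1 the gap of means was 79.2 CPM, less than the 93.4 CPM of their added SDs, so the means of these neighbours in the order did not differ beyond their spread. Within a library, Mirlet7a-2 had 1.11 times the reads of Mirlet7f-1 in replicate 1 (counting interval 0.971 to 1.26) and 2.25 times in replicate 2 (1.97 to 2.57). Each other neighbouring pair was farther apart than its added SDs, among them Mirlet7c-2 and Mirlet7f-2 with a gap of 724 CPM against 571 and Mirlet7a-1 and Mirlet7a-2 with 283 CPM against 179.

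Loci with the same 5p product had unequal reads. Within a library these ratios need no scaling, and they are given with exact (Clopper-Pearson) intervals. Mirlet7f-2 had 25.7 times the reads of Mirlet7f-1 in replicate 1 (23.4 to 28.4) and 24.8 times in replicate 2 (22.2 to 27.9). Mirlet7c-2 had 4.03 times those of Mirlet7c-1 (3.88 to 4.20) and 3.30 times (3.18 to 3.43). Mirlet7a-1 had 3.06 times those of Mirlet7a-2 (2.76 to 3.40) and 2.09 times (1.91 to 2.28). For the let-7f loci the intervals of both libraries overlapped. For let-7a and let-7c the intervals of the libraries did not overlap, and both ratios were smaller in replicate 2. Reads that both copies could have given are missing from both sides of each ratio. Mirlet7a-1 and Mirlet7c-2 also share their 3p product with each other, and Mirlet7a-2 and Mirlet7c-1 have a 3p product of their own. Exact 3p reads would therefore be missing from only the higher locus in the let-7a and let-7c ratios.

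By product, the let-7c loci held 53.1% (52.5 to 53.7) of the members' reads in replicate 1 and 57.8% (57.2 to 58.5) in replicate 2. The let-7f loci held 40.1% (39.6 to 40.7) and 33.2% (32.7 to 33.8), and the let-7a loci 6.76% (6.47 to 7.05) and 8.92% (8.57 to 9.28).

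Each member was next compared with the nearest microRNA gene on the same strand that is not a member, since genes of 1 cluster can come from 1 primary transcript. Counts were not divided by hairpin length (83 to 96 bases for the members, 65 to 108 for these neighbours), because a read is about as long as a mature product and does not cover the hairpin. A read of exactly a member's 5p product matches both copies, so it would not be among the counts of the member. In both libraries all 6 members were below their neighbour, with a median log2 ratio of -5.96 in replicate 1 and -5.30 in replicate 2. None of these nearest neighbours, Mirlet7d, Mir100, Mir99a, Mirlet7b and Mir98, has a product that occurs in a hairpin elsewhere. The part that reads mapped to several places have in these differences was not tested.

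In the cluster on chromosome 13, Mirlet7d had 88831 and 80314 counts. Mirlet7a-1 reached 1.67% and 1.88% of that, 59.8-fold and 53.3-fold lower. Mirlet7f-1, between Mirlet7a-1 and Mirlet7d, reached 0.493% and 0.400%, or 203-fold and 250-fold lower (mean log2 ratio -7.81 ± 0.21), the widest gap among the 6.

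On chromosome 9, Mirlet7a-2 was 76.6-fold below Mir100 in replicate 1 (log2 ratio -6.26, interval -6.39 to -6.13) and 36.5-fold below it in replicate 2 (-5.19, -5.30 to -5.08). Mir125b-1, 45.1 kb downstream, whose 5p product is shared with Mir125b-2, was 36.7-fold and 18.2-fold above Mirlet7a-2. Mir100 stood at 10458 and 9547 CPM and Mir125b-1 at 5017 and 4769 CPM, so in this cluster both neighbours were lower in replicate 2 and the let-7 gene was higher there.

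On chromosome 16, Mirlet7c-1 was 64.9-fold below Mir99a in replicate 1 (log2 ratio -6.02, -6.07 to -5.97) and 42.6-fold below it in replicate 2 (-5.41, -5.46 to -5.36). Against Mir125b-2, 46.5 kb downstream and itself a locus with a copy, the picture differed. The log2 ratio of Mirlet7c-1 over Mir125b-2 was -0.09 (-0.16 to -0.02) in replicate 1 and 0.95 (0.87 to 1.04) in replicate 2, with signs that differ between the animals.

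On chromosome 15, Mirlet7c-2 had 4.68% and 6.14% of the counts of Mirlet7b, which had 265406 and 180890, and was 21.4-fold and 16.3-fold lower. The X-linked pair differed least. Mirlet7f-2 reached 76.5% and 58.6% of the counts of Mir98 (14737 and 13624), or 1.31-fold and 1.71-fold lower, with log2 ratios of -0.39 (-0.42 to -0.35) and -0.77 (-0.81 to -0.73). The mean of -0.58 ± 0.27 was nearer to 0 than that of the other 5 members, whose means ran from -7.81 to -4.22.

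**Figure D2:**
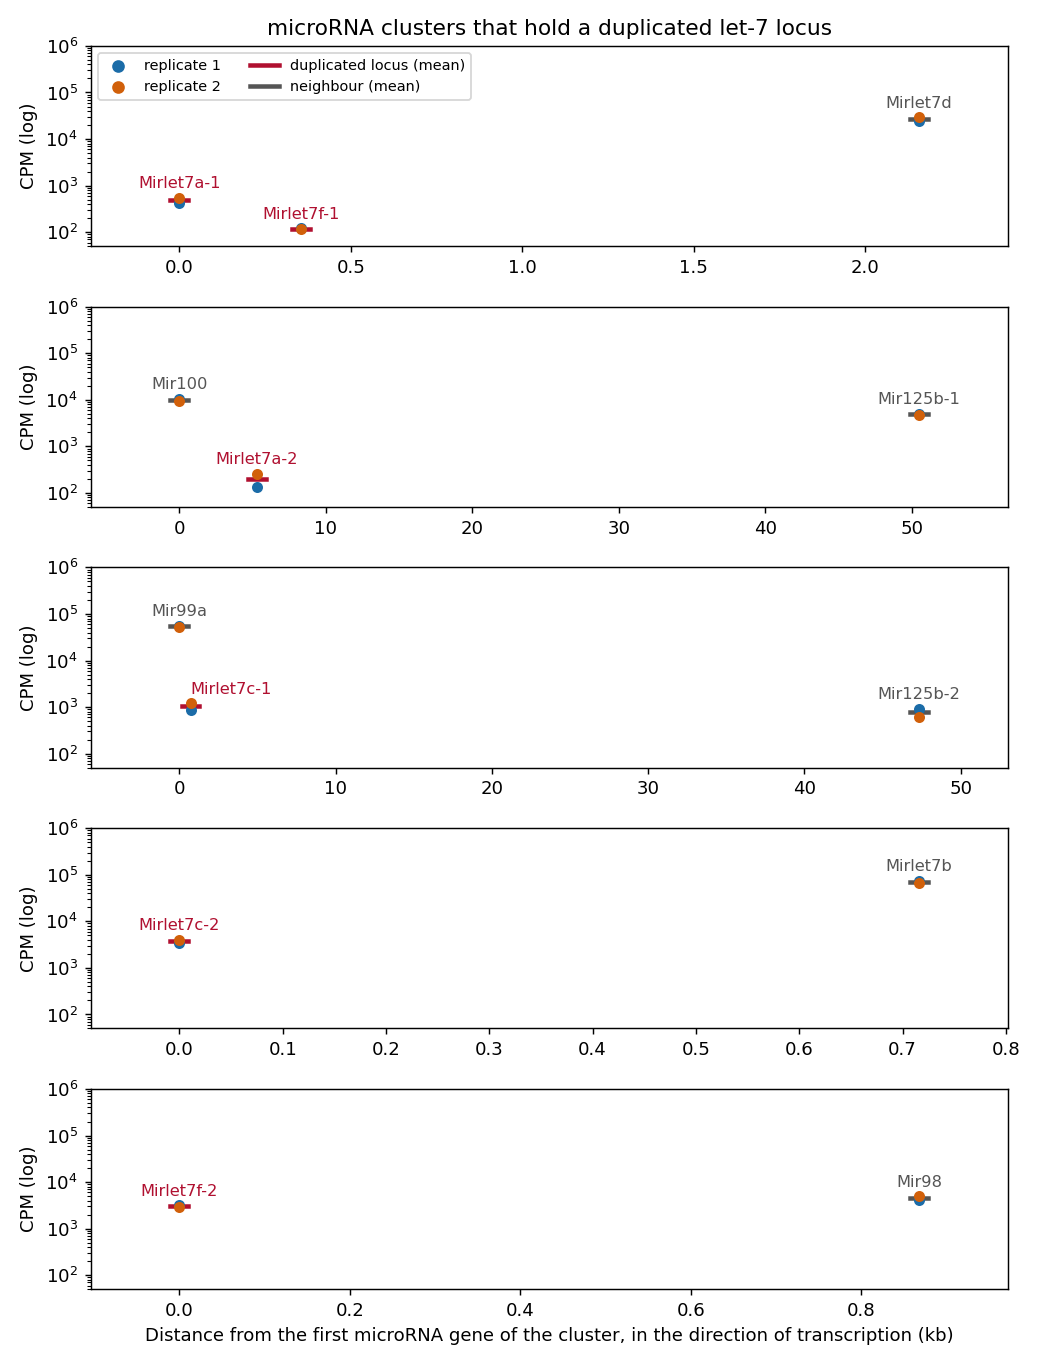
Levels in CPM (log axis) of the microRNA genes of each cluster against their distance from the first gene in the direction of transcription (kb), 1 point per library and a tick for the mean. Mirlet7f-2 and Mir98 lie side by side at 3031 and 4540 CPM, while Mirlet7f-1 lies at 120 CPM beside Mirlet7d at 27037.

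**Figure D3:**
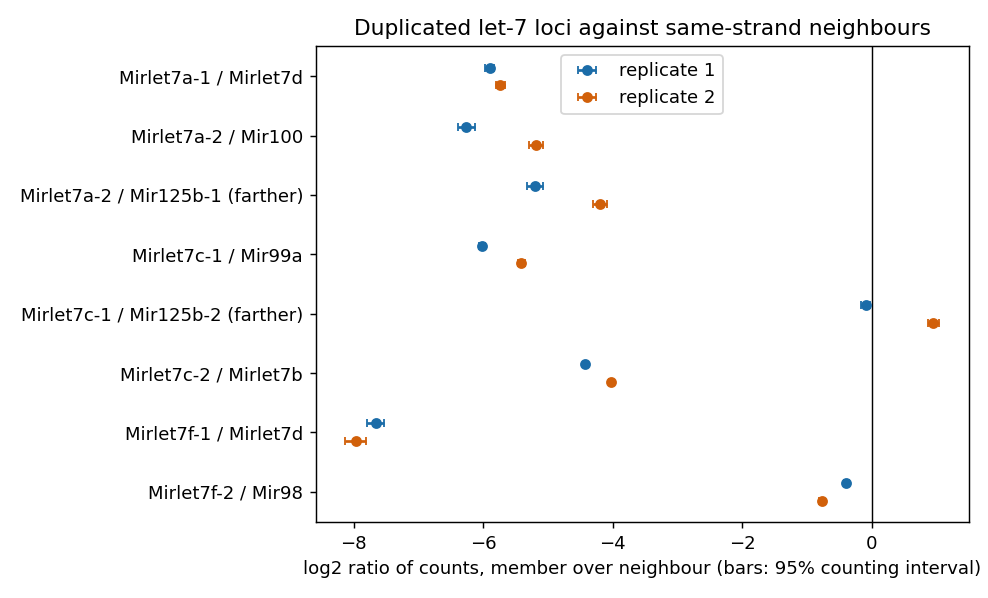
Log2 ratios of counts, member over same-strand neighbour, in replicates 1 and 2, with bars for the 95% counting interval; a value below 0 means fewer reads at the member. The 12 values against nearest neighbours lie from -7.96 to -0.39, and the ratio to the farther Mir125b-2 lies at -0.09 and 0.95.

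Between the animals, no member was 2-fold or more apart after scaling by TMM, a trimmed mean of gene-wise log ratios that sets the libraries level. Among the 308 genes whose counts added up to at least 100, a difference of 2-fold or more was seen toward replicate 2 for 5.19% and toward replicate 1 for 11.0%. Ratios are replicate 2 over replicate 1. In these bulk samples fewer cells of a type and less RNA per cell cannot be told apart. Mirlet7a-2 lay just inside that limit, with 1.96 times the level in replicate 2 (log2 ratio 0.97, counting interval 0.80 to 1.14), and 83.4% of those genes had a smaller absolute ratio. Mirlet7c-1 was 1.43-fold (0.52, 0.45 to 0.59), Mirlet7a-1 1.33-fold (0.41, 0.31 to 0.52) and Mirlet7c-2 1.17-fold (0.23, 0.20 to 0.27) higher in replicate 2.

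The let-7f loci did not share this direction. Mirlet7f-2 had 1.07 times the level in replicate 1 (log2 ratio -0.10, -0.15 to -0.06), and Mirlet7f-1 had a ratio of -0.05 with an interval that spans 0 (-0.27 to 0.16). In all, 5 of 6 members had intervals that leave out 0, against 77.9% of the 308 genes, so this count is near the background of these libraries. The median over the members was 0.32 and over the 6 single-locus genes 0.26, beside -0.05 over the 308 genes; the sign of each member's ratio was the same with TMM, DESeq2 size factors and plain library size. As sums, the duplicated loci had a log2 ratio of 0.17 (0.15 to 0.20) and the single loci 0.16 (0.15 to 0.16). The marker levels of neural and other cell types given above differ between the same libraries, and their part in these ratios was not tested.

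**Figure D4:**
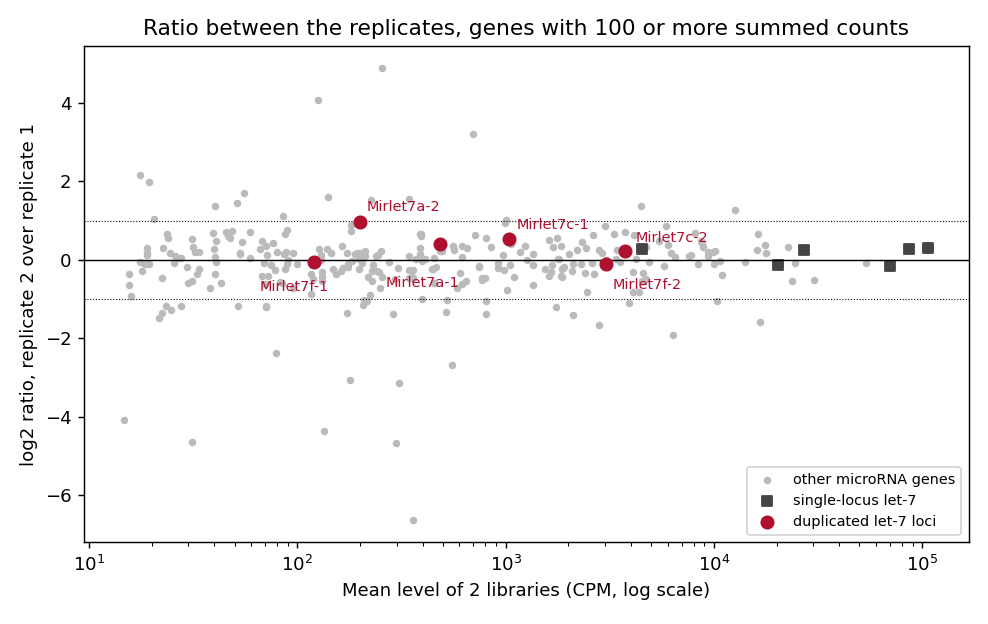
Log2 ratio of replicate 2 over replicate 1 against the mean level in CPM (log axis) for the 308 genes with 100 or more summed counts; dotted lines mark a 2-fold difference. The 6 duplicated loci lie between -0.10 and 0.97, inside the dotted lines.

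For each member, the gene outside the let-7 family with the most similar ratio between the animals, among genes within 2-fold of its mean level, was found over these 2 libraries. It was Mir350 for Mirlet7a-1, Mir7-1 for Mirlet7a-2, Mir28a for Mirlet7c-1, Mir30e for Mirlet7c-2, Mir32 for Mirlet7f-1 and Mir328 for Mirlet7f-2. The log2 ratios within these pairs differed by 0.003 to 0.089, out of 45 to 74 candidate genes per member. Each gene was picked for the smallest such difference, so the closeness follows from the choice.

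Strand mattered for 1 member. Gm24111 (chr13:48537825-48537921, plus strand) is a microRNA gene annotated over Mirlet7f-1 on the other strand. It had 0 reads on its own strand in both libraries, a count that, with 3 counts as the limit, is compatible with at most 0.844 and 1.09 CPM. On the opposite strand it had 438 and 321, the counts of Mirlet7f-1. In the column that ignores strand, reads over both genes were ambiguous, and Mirlet7f-1 had 0. The other 5 members had the same counts in both columns and 0 reads on the opposite strand.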

How the data were processed

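Small RNA libraries of 2 animals were analysed. The deposited values are raw whole-number counts of reads for every microRNA gene, with a separate table for each animal; the deposited notes name mm10 and GENCODE M21. The aligner, counter and filters are not given in the sources used here. The tables have no column names. Their columns were read here, from the layout and values, as uniquely mapped reads on either, the annotated and the opposite strand, and the annotated strand was used. Both arms of a hairpin are added up, and reads mapped to several places stand in a separate total. Effects of CAST variants on mapping were not tested. Library sizes exclude the rows without a gene, which hold reads that were unmapped (19.3% and 25.6% of all reads), mapped to several places (45.8% and 41.0%) or mapped outside the genes (4.50% and 5.63%).

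CPM and shares with 95% Wilson intervals were computed here, and 1 CPM is worth 3.56 and 2.76 reads. Log2 ratios had 0.5 added to each count, with 95% Clopper-Pearson intervals. Ratios between libraries used TMM factors (edgeR 4.0.16) over the 408 genes kept by filterByExpr, with the DESeq2 1.42.0 size factors as an alternative. Neighbours are same-strand microRNA genes within 50 kb. Alignments (Biopython 1.88) scored 1 per match, -1 per mismatch, -2 to open and -0.5 to extend a gap. Shared stretches and products were searched in the GENCODE hairpins of the 2202 genes, leaving out genes that overlap the locus, and not in the genome. Ratios between libraries and the intervals were tested on simulated counts with counting error only, without PCR copies or variation between animals. Coverage of the ratio intervals was tested with the scale between libraries taken as known. Ratios within a library were not simulated. Named genes are the members, microRNA genes within 50 kb, the other let-7 genes and the gene with the nearest ratio. The members and lists were chosen with earlier results of these data known.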

Additional observations from a re-analysis of the deposited data

Results flagged for a closer look

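Reads mapped to several places lie outside the gene values and made up 45.8% of all reads in replicate 1 and 41.0% in replicate 2. How many of them came from let-7a, let-7c or let-7f was not tested. Opposite-strand reads of Gm24111, a column that the levels do not use, numbered 438 in replicate 1 and 321 in replicate 2, above the 3 counts that a count of 0 allows, and equalled the annotated-strand counts of Mirlet7f-1.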

How the results depend on the processing

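In all, 93 alternative values were computed for 21 results, of which 75 stayed within the spread or counting interval, 17 moved beyond it and 1 changed sign. Those 75 include every value with 1 library left out. With n = 2 such a value cannot lie beyond the SD of the mean, so its staying within the spread was fixed in advance. With the column that ignores strand, Mirlet7f-1 fell to 0 CPM, because its reads became ambiguous with Gm24111. Its log2 ratio to Mirlet7d was then at most -14.78, taking 3 counts per library as the limit, and it gave no ratio between replicates. In that column Mirlet7e also fell to 0, from 75779 and 52940 reads, Mirlet7f-2 stood at 3231 CPM, on a smaller total, and the members held 2.80% of let-7 counts, a total without Mirlet7e. Without Mir98 in the family they held 2.70%. Scaled to all reads in place of microRNA reads, a larger denominator, the levels were 139 (Mirlet7a-1), 57.1 (Mirlet7a-2), 301 (Mirlet7c-1), 1089 (Mirlet7c-2), 34.9 (Mirlet7f-1) and 884 (Mirlet7f-2). Against the farther neighbour the mean log2 ratio was -4.69 for Mirlet7a-2 over Mir125b-1 and, with the sign changed, 0.43 for Mirlet7c-1 over Mir125b-2; the cause was not tested. The ratio of Mirlet7c-2 between replicates was 0.19 with DESeq2 size factors and 0.19 with TMM over all genes, a setting added after seeing the data, under which Mirlet7f-2 had -0.15. Genes at least 2-fold apart numbered 50 among 308 at the chosen minimum, 89 at a summed count of 20 and 314 with no minimum. The lower minima admit more genes with few reads, so 89 and 314 are not out of the same 308. All 6 members stayed detected at minima of 1 and 10 CPM. With a single library per animal, spread between animals rests on n = 2.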
